A study of Mus musculus with 6 samples.

Results

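The basement membrane components other than laminins were followed in endothelial cells that do or do not overexpress superoxide dismutase-3 (SOD3), through the transcripts of 10 genes, *Col4a1*, *Col4a2*, *Col4a5*, *Nid1*, *Nid2*, *Hspg2*, *Agrn*, *Sparc*, *Col15a1* and *Col18a1*. They were picked by name, from the gene that the array annotation gives for each probe. The array held 18 probes for these 10 genes, of 55681 probes for 36857 genes or transcripts, and these 18 probes filled 27 of its 59305 spots, because the *Col4a1* probe was printed 10 times. A probe for a cDNA clone whose description mentions perlecan was not counted, since the annotation places it on another chromosome than *Hspg2*.

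1G11 is a mouse microvascular endothelial cell line, labeled with the strain C57BL/6NCrLBR. 3 arrays held RNA of 1G11-mock cells, the control line without SOD3 overexpression, and 3 held RNA of 1G11-SOD3 cells, which overexpress SOD3, a secreted enzyme that turns superoxide into hydrogen peroxide. Before RNA was taken, both cell lines spent 6 h in cell-free medium from cultures of N202.1A, a mouse mammary cancer line, so that no group without this medium was included, and the labels call the 3 samples of each cell line biological replicates of 1 mock and 1 SOD3 line. The comparison asked how the transcriptional program of endothelial cells under tumor cell medium differed when SOD3 was overexpressed.

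Basement membranes are thin sheets of matrix under endothelial and epithelial cells and around pericytes. A laminin network anchored to the cell surface and a network of type IV collagen are joined by nidogens and by the heparan sulfate proteoglycans perlecan and agrin, which also hold growth factors. In blood vessels the type IV collagen network gives the wall its tensile strength, and the multiplexin collagens XV and XVIII sit at its outer face, where the C-terminal ends can be cut off as restin and endostatin, fragments known for restraining angiogenesis.

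Each probe is a strand of 60 bases, and where it lies in its transcript matters for what follows, because several genes were measured near the 3′ end as well as further upstream. Probes of 1 gene are numbered here from the 5′ end. Those that lie in coding sequence are shown, with their place as the array annotation gives it; the annotation names no genome build, and 15 of the 18 probes fall outside the GRCm38 span of their gene, so its coordinates are of another build. *Nid1* probe 1 (A_55_P2084303, chr13:13530138-13555992, plus strand) spans 25855 bases of genome for its 60 bases and so crosses at least 1 intron. *Hspg2* probe 1 (A_55_P1959648, chr4:137125445-137125504, plus strand) and *Agrn* probe 1 (A_55_P2009127, chr4:155546878-155546937, minus strand) each lie in 1 uninterrupted stretch. In *Col15a1* probe 1 (A_55_P2060386, chr4:47283786-47283845, plus strand) the capitals mark the 6 glycine codons that recur at a fixed spacing in its open reading frame, the repeat that defines a collagen triple helix.
Nid1 probe 1: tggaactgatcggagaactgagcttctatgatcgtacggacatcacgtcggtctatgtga
Hspg2 probe 1: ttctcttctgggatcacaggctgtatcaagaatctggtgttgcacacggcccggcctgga
Agrn probe 1: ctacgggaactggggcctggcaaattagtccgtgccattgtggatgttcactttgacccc
Col15a1 probe 1: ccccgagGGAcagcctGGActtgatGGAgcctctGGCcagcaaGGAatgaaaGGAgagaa

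Values are log2 normalized intensities, 1 per array, after background correction and quantile normalization. The scanner software marked 34.2% to 43.8% of spots per array as well above background and none as saturated, and probes that fail this mark have only an upper bound. The 6 arrays lay on 1 slide, with 1G11-mock in one row of arrays and 1G11-SOD3 in the other, so that slide row and cell line cannot be told apart. A rectangular block in the middle of the array read dim on the 1G11-mock arrays: over 116 probes printed both there and elsewhere, the median of middle minus elsewhere was -0.83, -1.17 and -2.72 on the 1G11-mock arrays and 0.20, -0.19 and 0.13 on the 1G11-SOD3 arrays. None of the 27 spots of the basement membrane genes lay in this block. The *Sod3* probe did, and read 13.61, 12.66 and 9.86 in 1G11-mock against 16.37, 16.30 and 16.26 in 1G11-SOD3 cells, a log2 difference of 4.27 (SE 0.70, adjusted p = 0.0076). Trends across the surface of each array were then modeled and subtracted, and the values were quantile-normalized after that. The SD of the difference between the cell lines among copies of 199 repeated probes dropped from 0.68 to 0.21 with this step. These copies include those in the middle, and copies elsewhere were not looked at alone. The *Sod3* difference became 2.64 (adjusted p = 0.0138). Differences after this step are called adjusted for place below. They can also move through the normalization, as at the *Col4a5* spot. There the modeled trend differed by -0.01 between the cell lines, and the difference moved from -0.08 to 0.32.

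Most of the basement membrane genes were not called different between the cell lines. A probe was called when its adjusted p was under 0.05 and its change over 2-fold, and each gene was represented by its brightest probe. On this count 1 of the 10 genes was lower in 1G11-SOD3 cells (*Agrn*, the heparan sulfate proteoglycan agrin), 1 was higher (*Col18a1*, collagen XVIII) and 8 were not called, among them both chains of the major type IV collagen. *Col18a1* probe 1 was the brighter of its 2 probes only through the 1G11-SOD3 arrays. In 1G11-mock it averaged 7.59 against 7.73 for probe 2, which was not called, so the count of higher genes depends on this choice. Of the 33824 genes measured outside the middle, 1.41% were called lower and 0.837% higher. These shares follow the scaling: 283 genes were higher and 477 lower here, against 355 and 285 with the middle left out before normalization, 419 and 305 adjusted for place, 788 and 469 of 36857 genes with all copies of a probe averaged, and 542 and 4781 from the scanner software's processed signal.

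Probe by probe, 3 of the 18 probes were called, *Agrn* probe 2, *Sparc* probe 2 and *Col18a1* probe 1, where 1.86% of the 49526 probes outside the middle were called. The values of the 2 cell lines did not overlap at 6 of the 18 probes, against 19.7% of all probes. Adjusted for place, 3 of the 18 were called, *Sparc* probe 2 and both *Col18a1* probes but not *Agrn* probe 2, against 1.84% of all probes. 10 probes of 7 genes were well above background on all 6 arrays, and 4 probes, those of *Col15a1* and *Nid2*, on none. The median log2 difference of the 10 genes was 0.05, and that of all genes was -0.06.

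**Figure D1:**
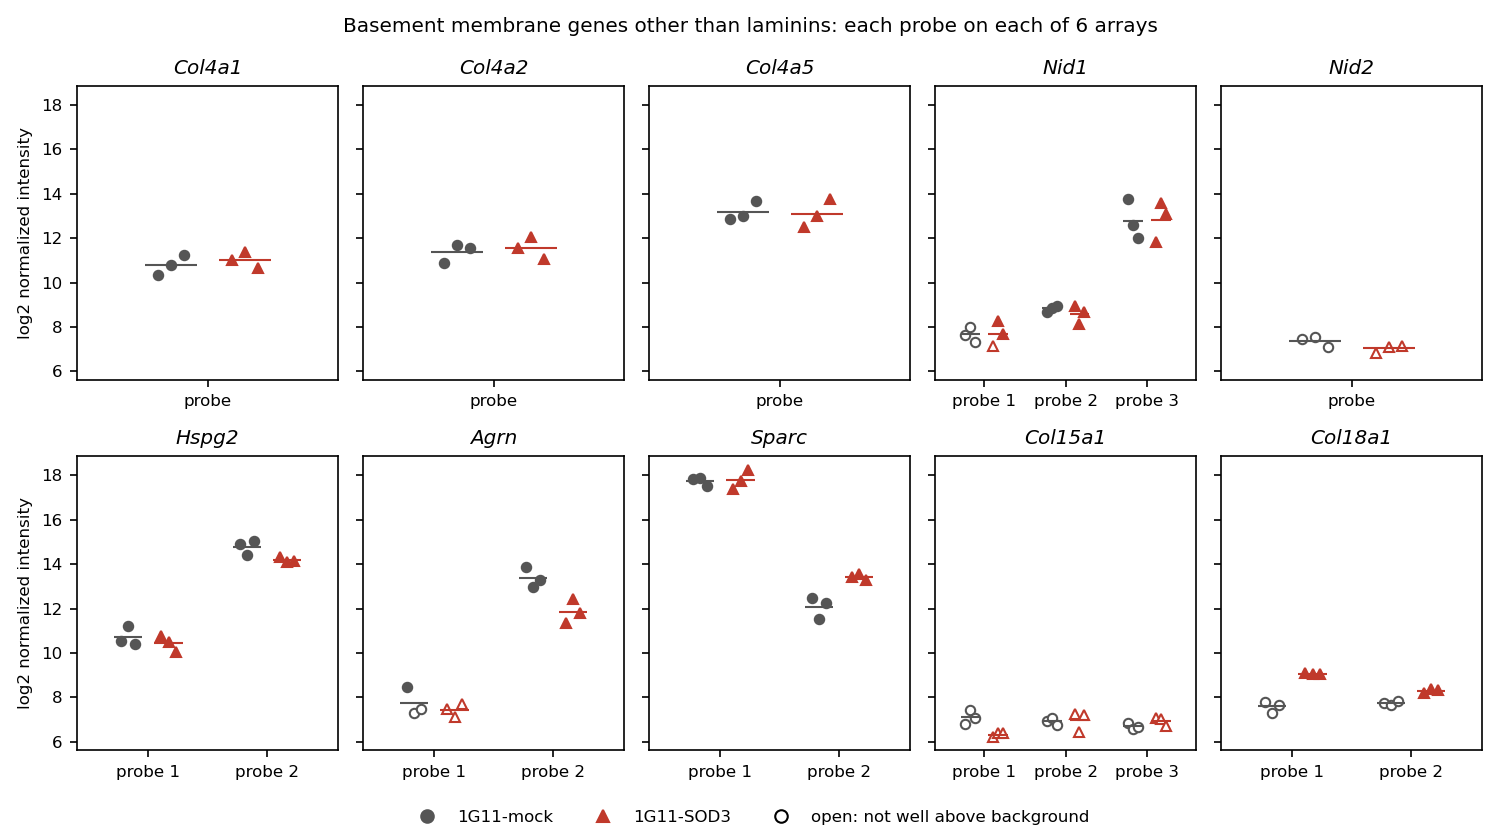
Log2 normalized intensity (vertical axis) of every probe of the 10 genes on the 3 1G11-mock arrays (circles) and the 3 1G11-SOD3 arrays (triangles); probes of a gene run from the 5′ end (probe 1) to the 3′ end, horizontal lines are means, and open symbols are readings not well above background. Levels of different probes cannot be compared. The cell lines do not overlap at *Agrn* probe 2, *Sparc* probe 2 and *Col18a1* probe 1, where the means differ by -1.52, 1.34 and 1.47; the 1G11-mock readings of *Col18a1* are open symbols, so that 1.47 is not a measured size.

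The type IV collagens, which form the covalently linked network of every basement membrane, showed no difference beyond the spread between arrays. The α1 chain *Col4a1*, averaged over its 10 spots, read 10.33, 10.77 and 11.25 in 1G11-mock cells and 11.03, 11.37 and 10.65 in 1G11-SOD3 cells. The groups overlapped, and the difference was 0.23 (95% CI -0.40 to 0.86, adjusted p = 0.776). Its partner in the major heterotrimer, the α2 chain *Col4a2*, read 10.89, 11.69 and 11.54 against 11.56, 12.07 and 11.07. The difference was 0.19 (95% CI -0.48 to 0.87, adjusted p = 0.831), so that for both chains the interval stays below a doubling. The X-linked α5 chain *Col4a5*, part of the specialized networks of kidney and lung, read 12.86, 12.98 and 13.66 against 12.48, 13.01 and 13.77, again with full overlap. Its difference was -0.08 (95% CI -0.82 to 0.66, adjusted p = 0.947), and 0.32 adjusted for place, so no direction can be read from it.

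The repeated *Col4a1* probe also shows how far the place of a spot moved a reading on 1 array. On the 1G11-SOD3 replicate 1 array its 6 spots in rows 2 to 248 read 11.23 to 11.81 and its 4 spots in rows 290 to 383 read 9.93 to 10.38, so that the same probe fell by more than a log2 unit between the upper and the lower part. On no other array were the upper and lower spots this far apart. Compared spot by spot, the difference between the cell lines ran from -0.08 to 0.37, with 8 of the 10 spots higher in 1G11-SOD3 cells, and adjusted for place it ran from 0.10 to 0.64. A single reading, that of the spot in row 116 on the 1G11-mock replicate 3 array, carried an outlier mark and was left out of the mean.

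**Figure D2:**
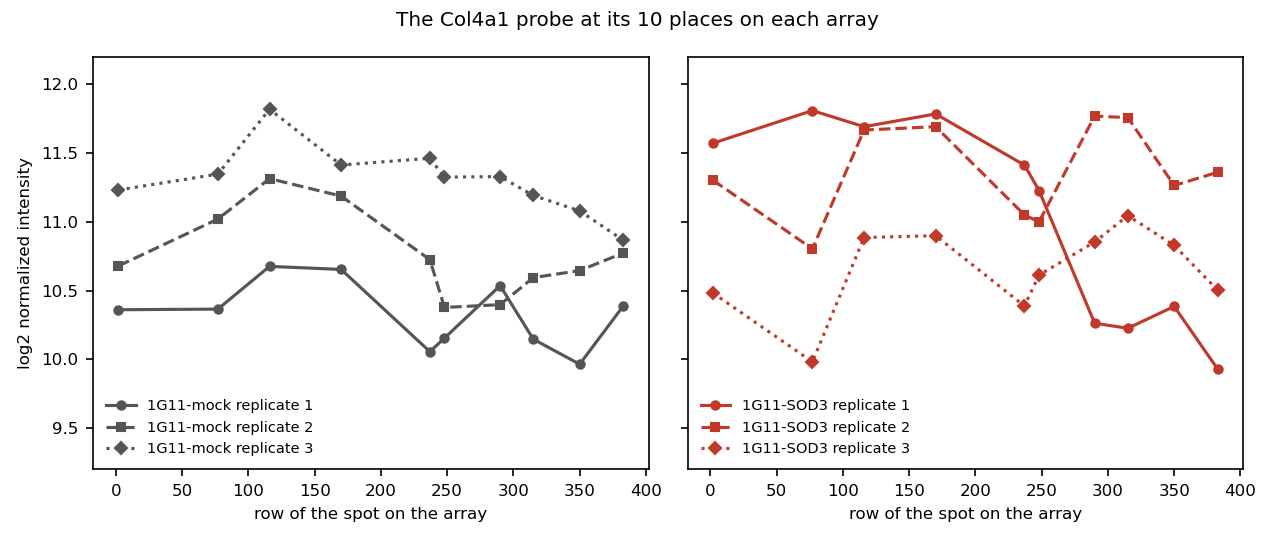
Log2 normalized intensity (vertical axis) of the *Col4a1* probe at its 10 places, by the row of the spot on the array (horizontal axis), for the 3 1G11-mock arrays (left) and the 3 1G11-SOD3 arrays (right). On 1G11-SOD3 replicate 1 the 4 spots from row 290 on lie between 9.93 and 10.38, below the 6 spots above them; the other arrays show no such step.

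The nidogens bridge the laminin and collagen IV networks. *Nid1* was measured by 3 probes, and at its brightest, probe 3, the arrays read 13.75, 12.59 and 12.01 in 1G11-mock and 11.82, 13.59 and 13.09 in 1G11-SOD3 cells. This was the widest scatter within the cell lines of any of the 18 probes (SD 0.89 and 0.91), and the groups overlapped fully. The difference was 0.05 (95% CI -1.02 to 1.11, adjusted p = 0.979), an interval that still holds a change of 2-fold in either direction. *Nid1* probe 2 differed by -0.26 (adjusted p = 0.705), and probe 1 was well above background on 2 of the 6 arrays only. The probe of *Nid2*, which can stand in for nidogen-1, was not well above background on any array, with readings from 6.84 to 7.53 over both cell lines.

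Perlecan and agrin, the heparan sulfate proteoglycans that tie the networks to each other and to growth factors, both read lower in 1G11-SOD3 cells at their brightest probe, and agrin alone passed the threshold. *Hspg2* (perlecan) probe 2 read 14.91, 14.41 and 15.04 in 1G11-mock against 14.32, 14.11 and 14.16 in 1G11-SOD3 cells. The groups did not overlap, but the difference of -0.59 (95% CI -1.12 to -0.07) did not pass the correction over all probes (adjusted p = 0.277) and was -0.28 adjusted for place. *Hspg2* probe 1, 947 bases upstream, differed by -0.29 (adjusted p = 0.715), with overlapping groups.

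*Agrn* probe 2 (A_55_P2009121, chr4:155539415-155539474, minus strand) read 13.86, 12.99 and 13.29 in 1G11-mock cells and 11.34, 12.42 and 11.82 in 1G11-SOD3 cells. The groups did not overlap, and the difference was -1.52 (SE 0.32, 95% CI -2.22 to -0.83, adjusted p = 0.0254), a 2.87-fold lower level. The call rested on the full set of arrays: with 1 array left out at a time it held only without 1G11-SOD3 replicate 2 (adjusted p = 0.0159) and was lost without any of the other 5, with differences from -1.72 to -1.26 and adjusted p from 0.0522 to 0.106. Its only spot lies in row 305 and column 164 at the edge of the array. This is the lower part, where 1G11-SOD3 replicate 1 read *Col4a1* low, and the same array gave the lowest *Agrn* reading. The modeled trend at this spot was -0.87, 0.21 and 0.73 on the 1G11-SOD3 arrays and -0.22, -0.12 and 0.28 on the 1G11-mock arrays. Its mean differed by 0.05 between the cell lines, and a part of place in the *Agrn* difference was not tested. Adjusted for place, the difference was -1.17 and was not called (adjusted p = 0.102), a move that came mainly with the quantile normalization after the subtraction. Without 1G11-SOD3 replicate 1, and without this adjustment, the difference was -1.26 (adjusted p = 0.106). *Agrn* probe 1, 3692 bases upstream, was well above background on 1 of the 6 arrays and differed by -0.32 (adjusted p = 0.71).

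*Sparc* encodes the collagen-binding glycoprotein osteonectin, which binds collagens including collagen IV and counteracts cell adhesion. Its 2 probes gave different values. Probe 1 (A_55_P2046812, chr11:55208939-55208998, minus strand), the brighter, read 17.83, 17.90 and 17.53 in 1G11-mock and 17.41, 17.73 and 18.25 in 1G11-SOD3 cells, with no saturated spot. Its groups overlapped, and the difference was 0.05 (95% CI -0.53 to 0.62, adjusted p = 0.961). Probe 2 (A_55_P2046807, chr11:55208003-55208061, minus strand), which starts 937 bases further toward the 3′ end, read 12.48, 11.53 and 12.28 against 13.44, 13.57 and 13.30. Here the groups were apart, with a difference of 1.34 (SE 0.27, 95% CI 0.74 to 1.94, adjusted p = 0.0228) and of 1.52 adjusted for place (adjusted p = 0.015). The call was lost without 1G11-mock replicate 2, 1G11-SOD3 replicate 1, 2 or 3, with differences from 1.06 to 1.43 and adjusted p from 0.0680 to 0.0843. The difference between the cell lines was 1.30 larger at probe 2 than at probe 1, without overlap of the groups. 10 such pairs of probes were compared, and an exact permutation test, two-sided, gave this pair p = 0.1, the smallest that 3 against 3 arrays allow (0.25 after adjustment over the 10 pairs). Pairs of *Agrn* (-1.21), *Col15a1* (1.03) and *Col18a1* (-0.90) reached the same p, each with at least 1 probe that was not well above background on every array.

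The multiplexins are collagens with interrupted triple helices that carry glycosaminoglycan chains. *Col18a1*, the gene from which endostatin is cut, was called higher in 1G11-SOD3 cells at 1 of its 2 probes. Its probe 1 (A_55_P2124791, chr10:76515790-76515849, minus strand) read 9.09, 9.06 and 9.05 on the 1G11-SOD3 arrays, all well above background, and 7.79, 7.32 and 7.67 on the 1G11-mock arrays, none of them well above background. Since the 1G11-mock level is only bounded, the level was at least 1.97-fold higher in 1G11-SOD3 cells. This bound lies under the 2-fold that a call requires, so the call rests on 1G11-mock readings below the background mark. The fitted difference was 1.47 (SE 0.22, adjusted p = 0.00494). This call held with any of the 6 arrays left out (adjusted p from 0.00694 to 0.0323), and adjusted for place (1.57, adjusted p = 0.00496). Probe 2 (A_55_P2059352, chr10:76514926-76514985, minus strand), 864 bases downstream, read 8.20, 8.40 and 8.31 against 7.73, 7.64 and 7.82. The groups were apart here too, again with only the 1G11-SOD3 arrays well above background, which gave at least a 1.16-fold higher level. The fitted difference was 0.57 (adjusted p = 0.222, not called), and 1.16 adjusted for place (adjusted p = 0.0198); both are set against readings below background and give no size. *Col15a1*, the sister gene, was not well above background at any of its 3 probes on any array. Its readings ran from 6.21 to 7.42, and its probes 2 and 3 overlap by 48 bases and are not independent.

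**Figure D3:**
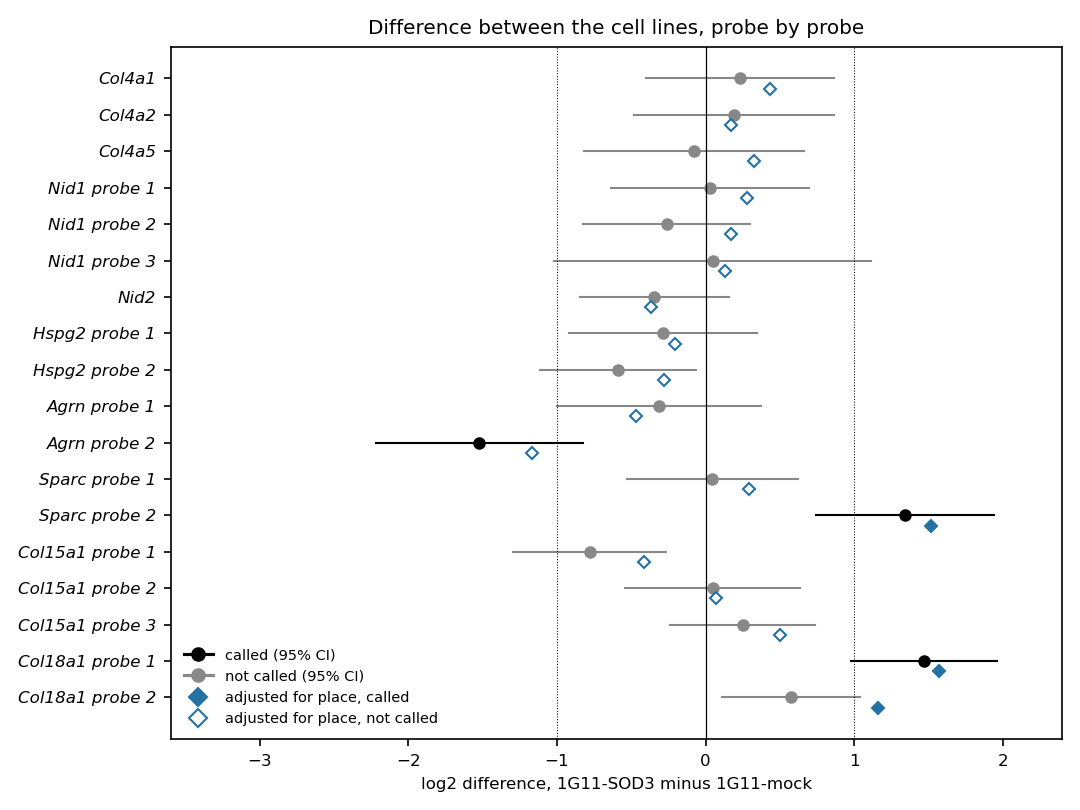
Log2 difference, 1G11-SOD3 minus 1G11-mock (horizontal axis), for each of the 18 probes, with 95% CI of the fit; black marks called probes, gray the others, blue diamonds give the difference adjusted for place (filled where called), and dotted lines mark 2-fold. *Agrn* probe 2 at -1.52, *Sparc* probe 2 at 1.34 and *Col18a1* probe 1 at 1.47 are the called probes.

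The 3 called probes had a feature in common that was seen only after their values were known. They are among the 4 of the 18 probes whose sequence holds AATAAA, the usual polyadenylation signal near the end of a transcript; the other is *Col18a1* probe 2, and none of the 14 probes without it was called. Over all probes outside the middle, 10.1% held AATAAA, and 2.68% of these were called against 1.77% of the others. All 4 of these probes had a GC content of 35.0%, as had 3 of the other probes. *Agrn* and *Sparc* were called at the 3′-most probe and not at the probe upstream of it. *Col18a1* went the other way, called at its upstream probe 1 and not at its 3′-most probe 2. The upstream *Agrn* probe was near background, so only for *Sparc* were both well above background on all 6 arrays.

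The called probes stayed on the same side of 0 under every setting tried, which the plot of all settings shows. Their calls held less well when 1 array was left out at a time. Of these 6 fits, *Agrn* probe 2 was called in 1, *Sparc* probe 2 in 2 and *Col18a1* probe 1 in 6. *Col18a1* probe 1 was called in all 15 alternatives with differences from 1.01 to 2.02. These are set against 1G11-mock readings below the background mark and give no size. *Sparc* probe 2 was called in all 15 with differences from 1.31 to 1.74, and *Agrn* probe 2 in 14 of 15 with differences from -1.53 to -1.17.

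**Figure D4:**
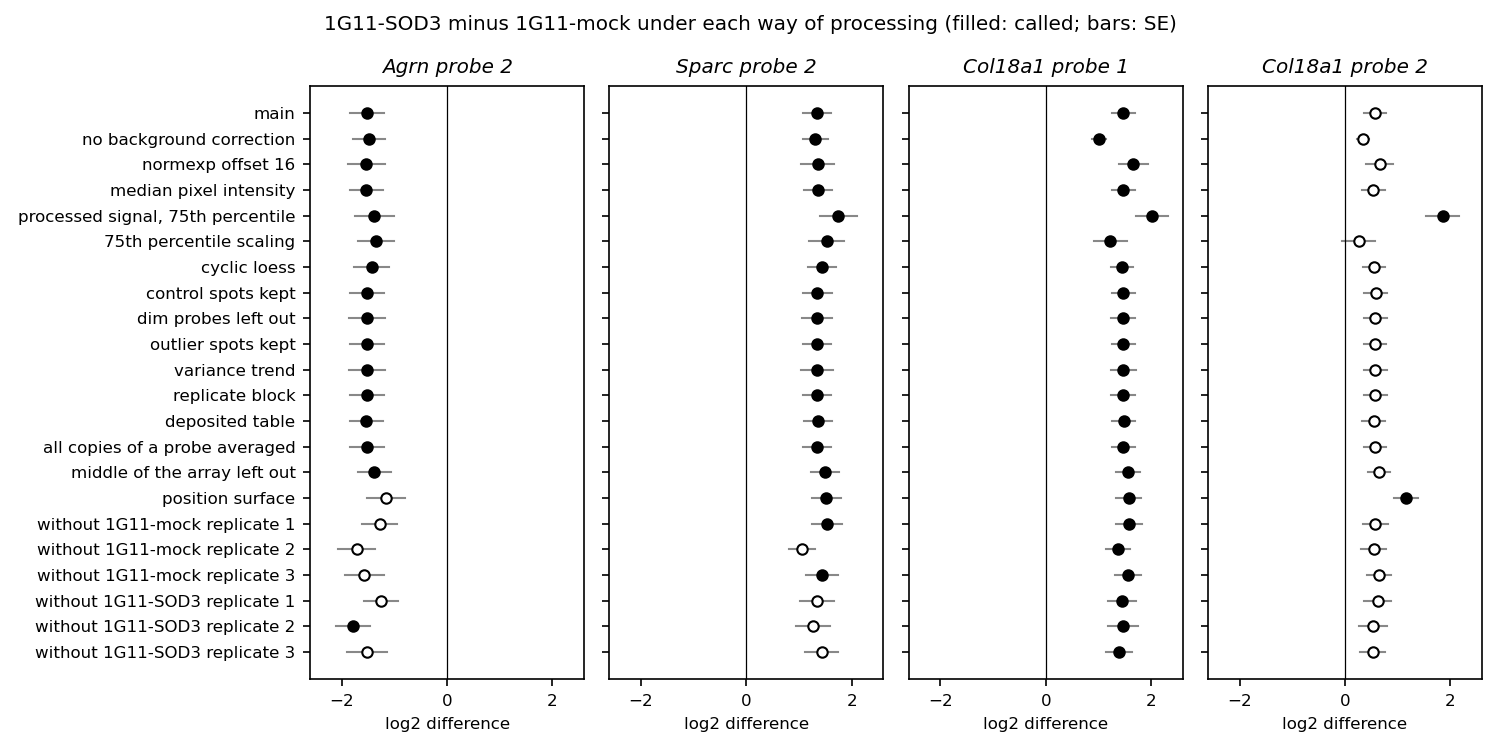
Log2 difference, 1G11-SOD3 minus 1G11-mock (horizontal axis), with its SE as a bar, for 4 probes under the main setting, 15 alternative ways of processing and with each array left out; filled points are called. *Col18a1* probe 1 is filled throughout, *Agrn* probe 2 is open adjusted for place and without 5 of the 6 arrays, and *Col18a1* probe 2 is filled only from the processed signal and adjusted for place.

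Other genes of the basement membrane and of its assembly were counted by their brightest probe outside the middle. Among 9 laminin chains 1 was called, *Lama5*, the α5 chain, which was lower at 13.79, 13.63 and 13.34 in 1G11-mock against 12.10, 11.87 and 11.29 in 1G11-SOD3 cells (difference -1.83, adjusted p = 0.00376). The α4 chain *Lama4* differed by 0.83 (adjusted p = 0.115), without overlap. Among 21 other basement membrane components 2 were called higher, the matrix protein *Ccdc80* (1.22, adjusted p = 0.0244, and 0.87 adjusted for place, not called) and *Smoc1*, a relative of *Sparc* that was well above background on 2 1G11-SOD3 arrays and no 1G11-mock array (at least 1.35-fold higher, adjusted p = 0.0471). Of 20 genes for folding, export and crosslinking of collagen IV, all well above background, 2 were called higher and 1 lower, all of which act on procollagen chains. *Serpinh1*, the collagen chaperone HSP47, differed by 1.38 (adjusted p = 0.0189), the prolyl 3-hydroxylase family member *P3h3* by 1.79 (adjusted p = 0.00944), and *P3h2*, which hydroxylates collagen IV, by -1.19 (adjusted p = 0.0234, and -0.63 adjusted for place, where it was not called). Of 18 receptors for basement membrane proteins 1 was called lower, *Itgb4*, the β4 subunit of a laminin-binding integrin (-1.24, adjusted p = 0.023, and -0.94 adjusted for place, not called). Of 22 proteases and inhibitors 1 was called higher, *Adamts1*, which cleaves proteoglycans (2.44, adjusted p = 0.0012). The medians of these lists ran from -0.29 for the receptors to 0.18 for the other components, beside -0.06 over all genes.

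Of 14 pericyte, smooth muscle and fibroblast markers 7 were called higher in 1G11-SOD3 cells, as *Col18a1* and *Sparc* probe 2 were, and none lower, with a median difference of 1.05. The 7 that were not called ran from -0.88 for *Fap* to 0.83 for *Postn*, with *Rgs5* at -0.54 and *Myh11* at -0.30. *Col1a1*, a chain of type I collagen, read 12.15, 11.31 and 10.50 against 14.43, 14.02 and 14.80 (8.55-fold higher, adjusted p = 0.00147). *Acta2*, smooth muscle actin, differed by 2.62 (adjusted p = 0.00106), *Pdgfrb*, the pericyte receptor for PDGF-B, which only 1 of the 1G11-mock arrays read well above background, by 2.39 (adjusted p = 0.000346), and *Lum*, lumican, not well above background in 1G11-mock cells, was at least 2.24-fold higher (adjusted p = 0.0299). The summed linear intensity of the 14 genes ran from 77208 to 78083 on the 1G11-mock arrays and from 144253 to 373388 on the 1G11-SOD3 arrays. The bright probe of *Col3a1*, a fibrillar collagen, made up a large part of this sum, which without it ran from 23273 to 37715 and from 45033 to 177400. 4 of the 14, *Rgs5*, *Myh11*, *Fap* and *Postn*, did not pass the background mark on any array. The part of this change in the results above was not tested, and in RNA of whole cultures more cells of a type and more RNA per cell cannot be told apart.

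Among 12 endothelial markers 1 was called higher, *Egfl7*, an angiogenic secreted protein that 2 of the 1G11-mock arrays read well above background (1.82, adjusted p = 0.0172, and 0.97 adjusted for place, not called), and 1 lower, *Vwf*, von Willebrand factor (-1.65, adjusted p = 0.00326). Their summed intensity ran from 20872 to 30093 in 1G11-mock and from 14652 to 17330 in 1G11-SOD3 cells. *Cdh5*, *Tek*, *Tie1*, *Emcn* and *Erg* did not pass the background mark on any array, while *Kdr* and *Eng* passed it on all 6. The study, for its part, reports regular staining for VE-cadherin, the *Cdh5* product, as its check that 1G11 cells are endothelial. *Flt1* and *Esam*, also on the list of endothelial markers, were read only in the middle and were not counted. None of 8 epithelial and 7 leukocyte markers outside the middle was called. The summed intensity of the epithelial markers ran from 67572 to 112271 in 1G11-mock and from 44762 to 84739 in 1G11-SOD3 cells. Of these 8, 7 passed the background mark on no 1G11-mock array and 4 on no 1G11-SOD3 array. The leukocyte sum ran from 17862 to 24683 and from 19325 to 24322, with 5 of the 7 markers on no array of either cell line. The other epithelial marker, *Krt14*, a keratin of basal epithelial cells, was read only in the middle, where 1G11-mock arrays were dim, and was called higher there (4.82, adjusted p = 7.2e-05) and adjusted for place (2.04, adjusted p = 0.00119).

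**Figure D5:**
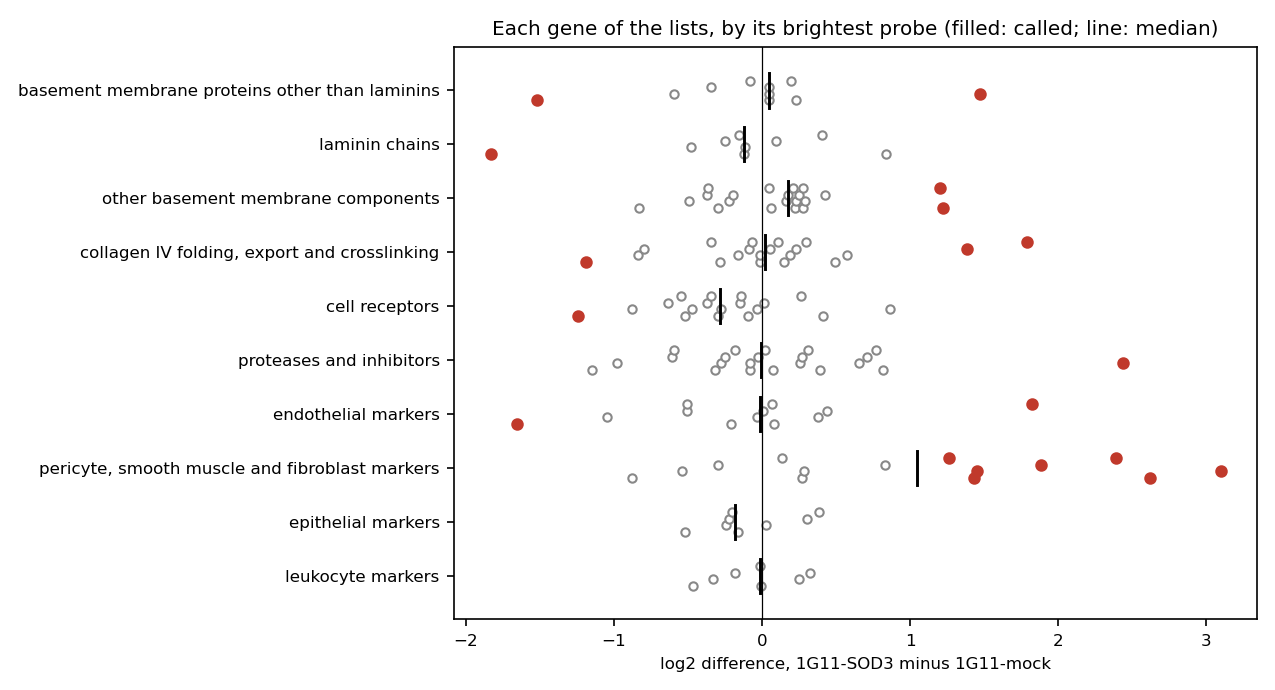
Log2 difference, 1G11-SOD3 minus 1G11-mock (horizontal axis), of each gene outside the middle in the 10 lists (vertical axis), by its brightest probe; filled points are called and vertical lines are list medians. The median of the pericyte, smooth muscle and fibroblast markers lies at 1.05 and those of the other lists between -0.29 and 0.18.

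RefSeq start sites (GRCm38.p6) were at hand for 9 of the 10 genes, in 11 windows of 250 bases before to 50 bases after the start. *Col4a1* and *Col4a2* are transcribed head to head from 1 shared region of chromosome 8: their start sites, at 11312826 and 11312805, lie 21 bases apart on opposite strands, and their windows share 78 bases. Because the study concerned NF-κB, the windows were searched on both strands for its κB consensus, which 8.46% of all 32851 windows hold. A single one of the 11 held a match, that of *Col4a2*, with GGGGAGCTCC at chr8:11312765-11312774, starting at -40 relative to the start site, on the opposite strand. The match also lies downstream of the *Col4a1* start site, just past the edge of that gene's window at 11312777, so the window cut alone assigns it to *Col4a2*. AP-1 sites written TGACTCA or TGAGTCA, in 5.20% of all windows, were in none of the 11. The GC box GGGCGG, in 35.7% of all windows, was in 8 of the 11, and CCAAT, in 37.4%, in 5 of the 11. Letters in a window are a description and not evidence of binding.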

How the data were processed

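RNA of 3 1G11-mock and 3 1G11-SOD3 samples was hybridized to 1-color Agilent SurePrint Mouse G3 arrays. The authors quantified spots with Feature Extraction (10.7.3.1, per the file headers) and deposited raw spot intensities, which were used here. The deposited value table holds log2 values made by the authors with normexp (offset 50) and quantile normalization; recomputing it from median intensities with control spots kept gave every value to within 0.01, with a column median of 7.52.

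Mean intensities were corrected with normexp (offset 50), log2-transformed and quantile-normalized after control spots were removed, and copies of a probe were averaged apart in the middle and elsewhere. limma 3.58.1 (R 4.3.3) was fitted on all 55971 features, without a block, with Benjamini-Hochberg adjustment over all of them. A probe was called at an adjusted p under 0.05 and a change over 2-fold. The fit was checked on simulated data with independent noise of a common SD and changes in bright features only. The simulated arrays had no trends across their surface and no changed probes near background, so the check does not bear on these. Bounds set each dim array at the lowest level among features well above background, or at its own reading if higher. Place on the array was modeled with mgcv 1.9.3 as a smooth of row and column, fitted to each array's deviations from the mean of the 6 arrays over probes printed once and well above background on at least 3 arrays, and subtracted before quantile normalization.

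Deviations from the group means correlated weakly between samples of the same replicate number (0.194, 0.118 and 0.137 for replicates 1, 2 and 3). Between different numbers the correlations ran from -0.193 to 0.062. The labels do not say what a shared number means, so a fit with the number as a block was only an alternative. Other alternatives were other corrections, normalizations, filters and leaving out each array.

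The members and gene lists were chosen with earlier results of these data known. Named genes were all members, *Sod3*, *Lama4*, *Lama5*, and up to 4 called genes per list with the largest change. 1 gene of the laminin list is not reported here and was left out of its counts.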

Additional observations from a re-analysis of the deposited data

How the results depend on the processing

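Of the values of the 18 probes under 15 alternatives and with each array left out, 328 kept direction and side of the threshold, 31 uncalled ones changed sign, 10 lost the call and 3 gained it. The count of genes lower fell from 1 to 0 adjusted for place and with a gene's probes averaged, and was 0 to 1 with each array left out. The count of genes higher was 2 instead of 1 when any probe sufficed. *Col15a1* probe 1 was called lower with 75th percentile scaling (-1.18, adjusted p = 0.0306), although below background; the median of all features was then -0.33, and -0.52 from the processed signal, where *Col18a1* probe 2 was called (1.85, adjusted p = 0.0182).

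With the replicate block, calls over the array rose from 1692 to 2296 and no call of a basement membrane gene changed (*Agrn* probe 2 adjusted p = 0.0259, *Sparc* probe 2 0.0172, *Col18a1* probe 1 0.0044).

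Laminin chains called rose from 1 to 2 from the processed signal and stayed at 1 with each array left out. Other basement membrane components fell from 2 to 1 under no background correction, 75th percentile scaling, cyclic loess, dim probes left out, the middle left out and the adjustment for place, to 0 with an offset of 16, and were 0 to 1 with each array left out. Collagen folding genes were 1 to 3 with each array left out, against 3. Receptors fell from 1 to 0 with an offset of 16, 75th percentile scaling and the adjustment for place, rose to 3 with all copies averaged, and were 0 to 1 with each array left out. Proteases rose from 1 to 2 with median intensities, 75th percentile scaling, cyclic loess, the deposited table and the middle left out, to 3 adjusted for place, to 6 from the processed signal, and were 1 to 3 with each array left out. Endothelial markers went from 2 to 4 from the processed signal and to 1 adjusted for place, and were 1 to 3 with each array left out. Pericyte, smooth muscle and fibroblast markers were 4 to 6 with each array left out, against 7, with 4 without 1G11-mock replicate 2. Epithelial markers rose from 0 to 2 and leukocyte markers from 0 to 2 from the processed signal, and epithelial markers to 1 with all copies averaged. The causes of these changes were not tested.

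With 3 arrays per cell line, the confidence intervals of *Nid1* probe 3, *Col4a1*, *Col4a2* and *Col4a5* span differences from a decrease to an increase, and for *Nid2* and *Col15a1* signal near background limits the comparison.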
